A study of Mus musculus with 5 samples.

Results

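The loci of the T cell coreceptors, *Cd4*, *Cd8b1* and *Cd8a*, all lie on mouse chromosome 6 and were examined for chromatin accessibility (ChrAcc) in naïve CD8+ T cells. Every DNase-seq peak whose summit fell within 1 of the 3 gene bodies or the 50 kb on either side was taken, on the mm9 assembly, whatever its value. The rule found 25 of the 31116 peaks of the WT list and 23 of the 25525 peaks of the dKO list, 48 of 56641 in both. Peaks that overlapped between the lists form 26 regions in all, numbered in genome order as 10 sites at *Cd4* and 16 at the joined windows of *Cd8b1* and *Cd8a*. The *Cd4* gene (chr6:124814710-124838239, minus strand) spans 23.5 kb, and its window runs from 124764710 to 124888239. The 14.6 kb *Cd8b1* gene (chr6:71272830-71287471) and the 5.75 kb *Cd8a* gene (chr6:71323421-71329165), both on the plus strand, are separated by 36.0 kb, and their joint window runs from 71222830 to 71379165. At the window edges, the nearest peak summits outside the *Cd4* window lay 0.445 kb (WT) and 0.468 kb (dKO) beyond its left edge, and those outside the Cd8 window lay 1.26 kb beyond its left edge.

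Both groups were splenic T cells of mice 6 to 12 weeks old on the C57BL/6 background, sorted as GFP+ TCRbeta+ CD8+ cells with the naïve CD62Lhi CD44lo-med phenotype. All mice carried the hCD2-Cre transgene and the Rosa26 GFP reporter, the WT controls included. WT mice (3 replicates) were wild type at *Tcf7* and *Lef1* (Tcf7+/+ with Lef1+/+), and dKO mice (2 replicates) had floxed alleles of both genes, namely Tcf7 fl/fl together with Lef1 fl/fl. The reporter marks cells in which Cre acted, and hCD2-Cre acts mostly in mature T cells, after the thymic choice between CD4 and CD8 has been made. The authors pooled the replicates of a genotype before peak calling, so each site has 1 value per genotype in the lists used here. From these lists no spread between animals can be given and no test between genotypes was possible, and read counts per replicate were not analysed here. All comparisons below describe these 2 pools.

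CD4 and CD8 are the coreceptors that bind MHC class II and class I molecules beside the T cell receptor and bring the kinase Lck to it. CD8 on conventional T cells is a dimer of the chains encoded by *Cd8a* and *Cd8b1*, whose linked genes are read under several enhancers spread between and around them. *Cd4* has enhancers upstream of its promoter and a silencer in its first intron, through which Runx proteins keep the gene off in CD8+ T cells. Tcf1 (encoded by *Tcf7*) and Lef1 are HMG-box factors that bind the core sequence ATCAAAG, and their loss in developing thymocytes is known to release *Cd4* in CD8 lineage cells. With hCD2-Cre, the deletion used here, the paper reports that CD4 was not released in mature dKO CD8+ cells.

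The sites on which the results turn are shown as the 201 bases around the WT summit, on the plus strand of mm9 from 5′ to 3′. Capitals mark exact matches on either strand to the core Tcf/Lef sequence ATCAAAG (read as CTTTGAT from the other strand), to the core Runx sequence TGTGGT (read as ACCACA from the other strand) or to the CTCF core. CTCF is the protein that binds insulators and chromatin loop anchors, and its core, searched for as CCA, AG and GGC with 2 free bases between each, was added after the data had been seen. Sites 5 and 6 of the *Cd4* locus are shown because they lie in its first intron and had the lowest dKO to WT ratios of all the sites examined. Site 8 is the only shared site upstream of *Cd4* and short of the *Mlf2* promoter.
Cd4 site 5 (chr6:124835253-124835453): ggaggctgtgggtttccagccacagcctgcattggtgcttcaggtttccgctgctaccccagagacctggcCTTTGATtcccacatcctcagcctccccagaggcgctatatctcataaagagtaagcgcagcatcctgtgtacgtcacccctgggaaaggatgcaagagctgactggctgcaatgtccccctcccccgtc
Cd4 site 6 (chr6:124835995-124836195): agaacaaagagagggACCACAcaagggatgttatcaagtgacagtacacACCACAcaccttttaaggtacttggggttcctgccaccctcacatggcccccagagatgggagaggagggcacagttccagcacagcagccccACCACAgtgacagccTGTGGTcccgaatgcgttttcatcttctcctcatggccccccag
Cd4 site 8 (chr6:124853661-124853861): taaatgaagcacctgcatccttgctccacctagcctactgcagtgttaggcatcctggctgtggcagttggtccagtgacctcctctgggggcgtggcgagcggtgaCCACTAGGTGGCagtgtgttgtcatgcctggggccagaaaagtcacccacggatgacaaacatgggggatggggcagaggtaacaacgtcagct

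At the Cd8 locus, site 5 is the *Cd8b1* promoter and site 13 the *Cd8a* promoter, printed here up to the base before the transcription start site (TSS). Sites 7, 11 and 12 lie between the genes, and site 16, in *Rmnd5a*, had the highest ratio.
Cd8 site 5 (chr6:71272624-71272824): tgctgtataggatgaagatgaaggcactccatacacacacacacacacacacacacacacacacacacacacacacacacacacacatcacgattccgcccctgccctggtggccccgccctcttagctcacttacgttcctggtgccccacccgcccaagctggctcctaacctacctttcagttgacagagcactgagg
Cd8 site 7 (chr6:71291294-71291494): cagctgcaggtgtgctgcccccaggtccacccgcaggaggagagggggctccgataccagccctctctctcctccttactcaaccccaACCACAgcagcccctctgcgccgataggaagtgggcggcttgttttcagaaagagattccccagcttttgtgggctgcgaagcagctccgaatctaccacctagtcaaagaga
Cd8 site 11 (chr6:71307564-71307764): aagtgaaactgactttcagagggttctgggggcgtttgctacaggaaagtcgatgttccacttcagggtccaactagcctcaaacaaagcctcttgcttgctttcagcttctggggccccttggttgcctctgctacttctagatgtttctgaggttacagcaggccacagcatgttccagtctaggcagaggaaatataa
Cd8 site 12 (chr6:71319485-71319685): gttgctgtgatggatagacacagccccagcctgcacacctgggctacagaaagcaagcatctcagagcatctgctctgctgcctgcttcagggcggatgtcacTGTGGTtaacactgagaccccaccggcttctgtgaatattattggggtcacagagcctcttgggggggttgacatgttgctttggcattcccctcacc
Cd8 site 13 (chr6:71323265-71323420): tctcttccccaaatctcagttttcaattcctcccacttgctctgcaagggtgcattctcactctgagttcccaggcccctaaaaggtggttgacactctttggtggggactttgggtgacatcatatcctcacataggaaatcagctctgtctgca
Cd8 site 16 (chr6:71349273-71349473): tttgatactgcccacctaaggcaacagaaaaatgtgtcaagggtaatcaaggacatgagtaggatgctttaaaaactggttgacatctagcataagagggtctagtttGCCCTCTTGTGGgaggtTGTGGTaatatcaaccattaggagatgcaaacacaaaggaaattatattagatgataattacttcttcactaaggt

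A ChrAcc site was a peak with at least 4-fold enrichment over the local background, p under 1e-05 and q under 0.05, the criteria of the study. The WT list had 28472 sites and rested on 83923734 fragments, and the dKO list had 24363 sites and rested on 62242963 fragments, a depth ratio of 1.35. For each site the lists give the pileup, which is the number of fragments over the summit. Each site was compared in 2 ways. Its fold enrichment was ranked as a percentile within its own list, with 100 for the highest. Its pileup per 1000000 kept fragments (FPM) was turned into a log2 ratio of dKO to WT, less the median of −0.13 over all 20626 shared sites, and this centred log2 ratio has a 95% Clopper-Pearson interval that covers counting error only. Over all shared sites, the central 90% of centred log2 ratios ran from −0.59 to 0.69, and the median percentile difference was −2.48 points. The median dKO to WT ratio of peak width was 0.917. A shared site had to pass the criteria in both lists, so a site lost from a list has no ratio.

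As a check of the sorted cells, *Cd8a*, *Cd8b1* and the T cell receptor component *Cd3e* had a promoter site (a summit within 1 kb of a TSS) in both lists, and the receptor gene *Trac* had 1 in dKO and 0 in WT, with 1 WT and 3 dKO sites in its body. The myeloid genes *Lyz2* and *Csf1r* had no site in promoter or body in either list, while the B cell gene *Pax5* had 1 site in its body in each. *Zbtb7b*, which encodes the CD4 lineage factor ThPOK, had no promoter site in either list and 2 WT and 0 dKO sites in its body.

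The *Cd4* window held 10 ChrAcc sites in WT and 9 in dKO cells, most of them in or at the promoters of neighbouring genes. By comparison, the median protein-coding gene had 3 WT and 2 dKO sites in a window of the same kind, and 93.6% of the 22208 protein-coding genes had fewer WT sites than *Cd4*. No peak of either list lay within 1 kb of the *Cd4* TSS, so accessibility of the *Cd4* promoter was not detectable at this depth. The lowest pileup of any peak in the lists was 16 fragments in WT and 13 in dKO. Within the gene body, both lists had the same pair of sites and no others, sites 5 and 6, which lie 2886 and 2144 bp downstream of the TSS in intron 1.

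Site 5 (chr6:124835205-124835471) was covered by 66 fragments at its summit in WT and 21 in dKO, and its fold enrichment was 8.17 and 5.21. It therefore ranked near the middle of the WT list, at percentile 47.3, and low in the dKO list, at 14.1. The summit had 0.786 FPM in WT and 0.337 FPM in dKO, a dKO to WT ratio of 0.429. The centred log2 ratio was −1.09 (95% counting interval −1.87 to −0.36), and only 0.504% of all shared sites had a lower one. In these bulk samples, a site open in fewer cells and a site less open in every cell cannot be told apart. The peak was 267 bp wide in WT and 188 bp in dKO, with its summit shifted by 51 bp. This is the site of the *Cd4* locus that holds the core Tcf/Lef sequence, on the minus strand at chr6:124835324-124835330, which is the coding strand of *Cd4*.

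Site 6 (chr6:124835985-124836355), the nearer to the TSS, behaved in the same direction. Its summit had 51 fragments in WT and 18 in dKO, with fold enrichment of 6.29 and 4.5, and its percentile went from 28.1 in WT to 5.39 in dKO. Scaled to depth it had 0.608 FPM in WT and 0.289 FPM in dKO, a ratio of 0.476. Its centred log2 ratio was −0.94 (−1.80 to −0.14), lower than at all but 0.941% of shared sites, and its width went from 371 to 161 bp. It holds no ATCAAAG but 4 copies of the core Runx sequence, 3 on the minus strand and 1 on the plus strand. Both intronic sites stayed above the 4-fold criterion in dKO, site 6 by a small margin.

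**Figure D1:**
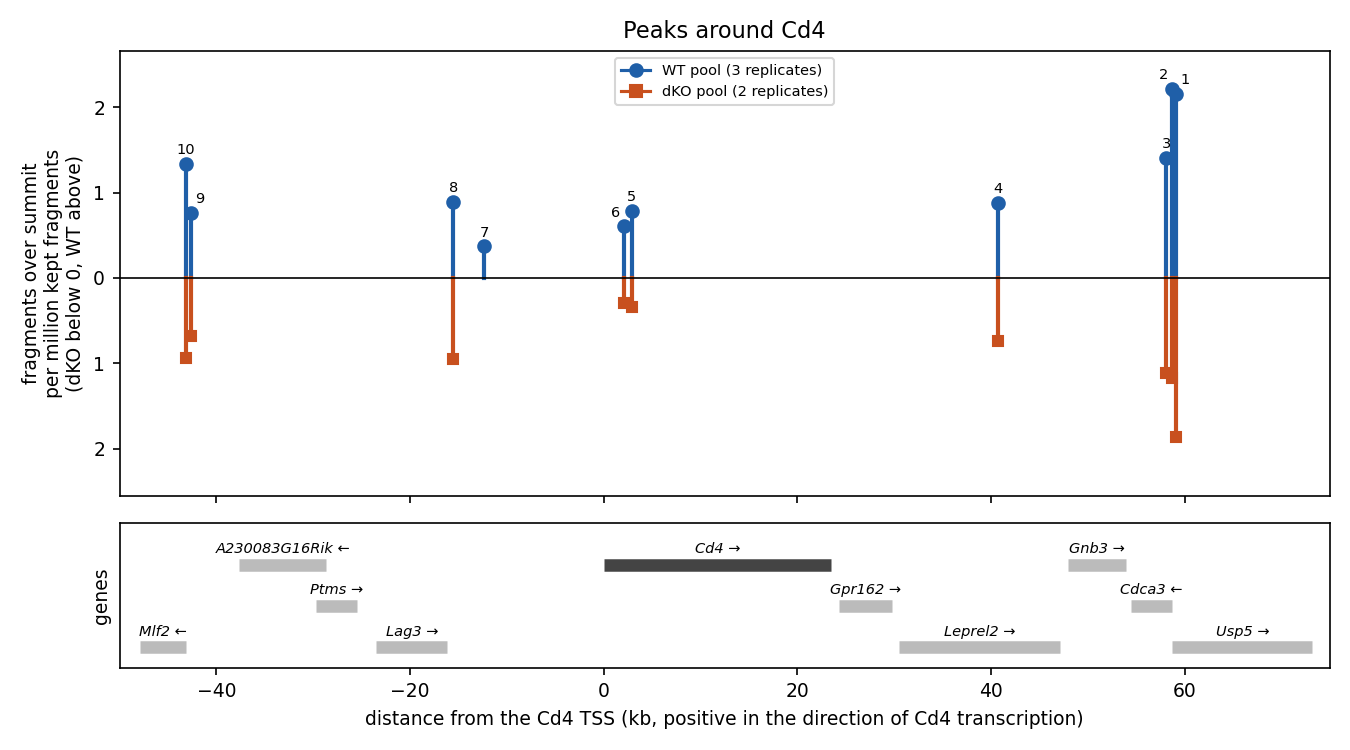
Peaks around *Cd4*, plotted by distance from its TSS in kb along its direction of transcription, with fragments over the summit in FPM for the WT pool above the line and for the dKO pool below it, numbered as in the text, and gene bodies underneath. In intron 1, sites 5 and 6 stood at 0.786 and 0.608 in WT and at 0.337 and 0.289 in dKO, while site 8 stood at 0.894 and 0.948.

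Upstream of the *Cd4* promoter, toward *Lag3*, which encodes an inhibitory receptor for MHC class II, the lists had 2 sites. Site 8 (chr6:124853674-124853852), 15.5 kb upstream of the *Cd4* TSS, had 75 fragments in WT and 59 in dKO and ranked at percentile 73.6 and 88.9. Its centred log2 ratio was 0.22 (−0.30 to 0.73), so any difference was within counting error, and the dKO to WT ratio of FPM values was 1.06. It matches the CTCF core 13 bp from its summit. Site 7 (chr6:124850534-124850651), 12.4 kb upstream, was found in WT only. It had 31 fragments and 4.68-fold enrichment and ranked at percentile 8.86, within the weakest 10% of the WT list, where 64.0% of sites had no dKO counterpart.

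The remaining 6 sites of the *Cd4* window lie in or at the promoters of neighbouring genes. Sites 1, 2 and 3 lie at the facing promoters of *Usp5*, which encodes a deubiquitinase, and *Cdca3*, a cell cycle gene, between 58.1 and 59.1 kb downstream of the *Cd4* TSS. Of these, site 2 had 186 fragments in WT and 73 in dKO, moved from percentile 76.5 to 42.2 and had a centred log2 ratio of −0.79 (−1.20 to −0.39). Its neighbours lay nearer to 0, with intervals that overlapped its own. Site 1 had 181 and 116 fragments (ratio −0.08, −0.43 to 0.27), and site 3 had 118 and 69 (−0.21, −0.66 to 0.23). The interval of site 2 excluded 0 and those of its neighbours did not.

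Site 4, in intron 9 of *Leprel2*, 40.8 kb downstream of the *Cd4* TSS, had the highest fold enrichment of the WT sites in the window, 13.3, with 74 fragments in WT and 46 in dKO and a centred log2 ratio of −0.12 (−0.69 to 0.43). At the promoter of *Mlf2*, sites 9 and 10 had ratios of −0.04 (−0.64 to 0.54) and −0.39 (−0.87 to 0.08). Apart from sites 2, 5 and 6, the 6 other shared sites of the *Cd4* window had ratios of −0.39 to 0.22 and percentile differences of −11.2 to 15.3 points. The ratios of the intronic pair thus lay below those of all the other shared sites of the window in these pools, site 2 being the nearest to them.

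The joint window of *Cd8b1* and *Cd8a* held 14 ChrAcc sites in each list, of which 13 were shared. Counted for each gene, the *Cd8b1* window held 13 WT and 13 dKO sites and the *Cd8a* window 9 and 10, and the windows overlap. Fewer WT sites were found at 98.1% of protein-coding genes for *Cd8b1* and at 90.7% for *Cd8a*. Unlike *Cd4*, both genes had a promoter site in both lists. By fold enrichment, the median percentile among shared sites was 32.1 in WT and 29.6 in dKO, against 73.6 and 46.8 for the *Cd4* window. Most shared sites of the *Cd4* window lie at neighbouring genes, and sites 5 and 6, in *Cd4* itself, ranked at 47.3 and 28.1 in WT. Ranked by pileup in WT, the shared sites of the Cd8 window ran from 17.2 (site 4) to 76.2 (site 11).

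The *Cd8b1* promoter, site 5 (chr6:71272431-71272827), peaks 106 bp ahead of its start and 497 bp from the TSS of *Smyd1*, a muscle gene transcribed the other way. It had 88 fragments in WT and 39 in dKO, or 1.05 and 0.627 FPM. Its percentile was 59.7 in WT and 41.5 in dKO. The centred log2 ratio was −0.61 (−1.19 to −0.05), lower than at all but 4.55% of shared sites, and the peak narrowed from 397 to 168 bp. Narrowing was not confined to sites with low ratios. Peaks with ratios near 0 also narrowed, from 281 to 105 bp at Cd8 site 4 and from 269 to 116 bp at Cd8 site 14. Cd8 site 12, with a ratio of −0.60, went only from 313 to 294 bp. The peaks wider in dKO, at Cd8 sites 2, 6, 13 and 16, all had ratios above 0. Their dKO to WT width ratios were 1.2, 1.38, 1.08 and 1.18. Cd4 site 8 and Cd8 site 1, also with ratios above 0, were narrower (0.916 and 0.907). The promoter of *Cd8a*, site 13 (chr6:71323308-71323501), 56 bp upstream of its TSS, had nearly equal scaled values in the pools. It had 41 fragments in WT and 31 in dKO, or 0.489 and 0.498 FPM, and a centred log2 ratio of 0.16 (−0.56 to 0.87), an interval that overlaps that of the *Cd8b1* promoter. At the WT level the *Cd8b1* promoter was the higher of the pair, and in dKO the values were closer, while the *Cd4* promoter had no peak in either list.

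By fold enrichment the *Cd8a* promoter was among the weakest sites of both lists, at percentile 4.58 in WT and 10.3 in dKO. Ranked by pileup it stood at 27.9 and 27.2. Fold enrichment divides by a local background, which at this site was 1.97 times the genome background of the pool in WT and 1.7 times in dKO. The rank of a site in a region rich in fragments is thus lower by fold enrichment than by pileup.

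Between *Cd8b1* and *Cd8a*, where enhancers of the pair lie, there were 4 shared sites, 1 site in dKO only and 1 WT peak under the criteria. Site 7 (chr6:71291293-71291541), 3.92 kb past the 3′ end of *Cd8b1*, had 72 fragments in WT and 31 in dKO and went from percentile 32.1 to 3.85. Its centred log2 ratio was −0.65 (−1.31 to −0.03), and the peak narrowed from 249 to 97 bp. Near the other end of the interval, site 12 (chr6:71319441-71319753), 3.84 kb upstream of *Cd8a*, had 74 and 33 fragments, fold enrichment of 9.12 and 5.92, and moved from percentile 56.1 to 23.1. With a centred log2 ratio of −0.60, its counting interval of −1.24 to 0.01 just included 0. Each holds 1 core Runx sequence, that of site 12 lying 6 bp from the summit.

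The site between them with the most fragments, site 11 (chr6:71307507-71307870), 15.8 kb upstream of *Cd8a*, had close values in the pools. It had 89 fragments in WT and 55 in dKO, or 1.06 and 0.884 FPM, and ranked at percentile 49.7 and 53.9, with a centred log2 ratio of −0.13 (−0.64 to 0.37). None of the 5 motifs searched matches near its summit. Site 9, 21.0 kb upstream, had 42 and 25 fragments and a ratio of −0.18 (−0.96 to 0.56). The interval between the genes thus held a pair of sites with lower dKO values at its ends and a pair with smaller differences in the middle.

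Site 8 (chr6:71293092-71293215), 30.3 kb upstream of *Cd8a*, was the only site found in dKO alone, with 34 fragments and 4.68-fold enrichment. It ranked at percentile 7.22, in the weakest 10% of the dKO list, where 46.1% of sites had no WT counterpart. Site 10, 19.5 kb upstream, was a WT peak with 40 fragments but only 3.64-fold enrichment, since the local background there was 2.34 times that of the genome, and it had no dKO peak. The WT-only site of the locus, site 3 (chr6:71262309-71262460), 10.4 kb upstream of *Cd8b1*, had 28 fragments, 4.19-fold enrichment and percentile 2.36.

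Inside *Cd8b1* and *Cd8a*, each gene had 1 site. Site 6, in intron 4 of *Cd8b1*, had 41 fragments in WT and 37 in dKO and went from percentile 13.8 to 31.7, with a centred log2 ratio of 0.42 (−0.27 to 1.09), and 91.3% of all shared sites had a lower percentile difference than its 17.9 points. Site 14, in exon 5 of *Cd8a*, had 47 and 31 fragments, percentiles of 16.4 and 16.3, and a ratio of −0.04 (−0.74 to 0.65). Just past that gene, site 15, 2.71 kb beyond its 3′ end, had 48 and 31 fragments and a ratio of −0.07 (−0.77 to 0.61). None of these intervals excluded 0.

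In the flank upstream of *Cd8b1*, site 1 in intron 1 of *Gm1070* was the strongest by fold enrichment, with 10.7 in WT and 11.1 in dKO, and had 63 and 46 fragments and a ratio of 0.11 (−0.47 to 0.68). Sites 2 and 4, which are intergenic, had ratios of 0.23 (−0.39 to 0.84) and 0.00 (−0.83 to 0.81). The strongest site downstream of *Cd8a* was site 16, at an annotated TSS of *Rmnd5a*, which encodes a subunit of a ubiquitin ligase, 26.0 kb from the *Cd8a* TSS. It was the only one of the 22 shared sites with a percentile at least 20 points higher in dKO, 64.8 in WT and 86.9 in dKO, and the difference of 22.1 points became 19.7 when percentiles were taken among all deposited peaks. With 54 fragments in WT and 57 in dKO, its centred log2 ratio was 0.64 (0.08 to 1.21), and 94% of shared sites had a lower one.

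**Figure D2:**
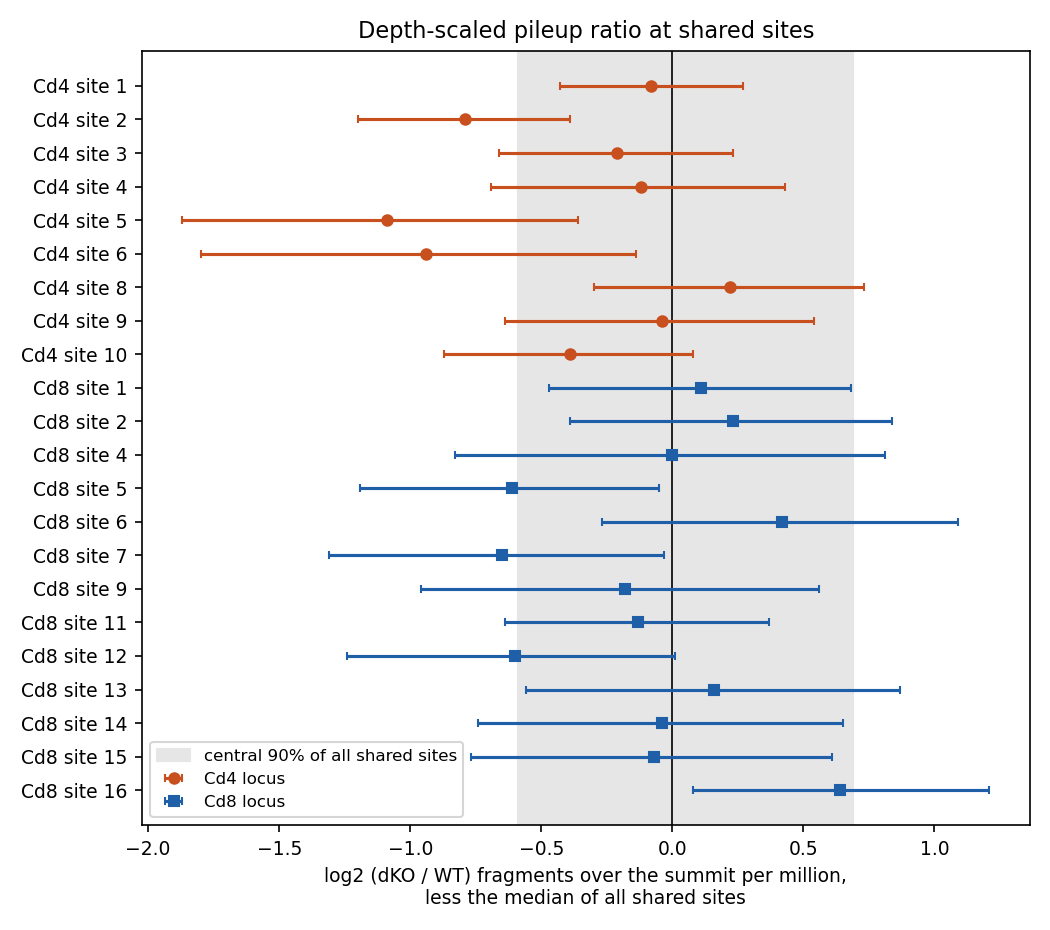
Centred log2 ratio of dKO to WT FPM values at the 22 shared sites, with bars for the 95% counting interval and a grey band for the central 90% of all shared sites (−0.59 to 0.69). Cd4 sites 2, 5 and 6 and Cd8 sites 5, 7 and 12 lie at −0.60 or lower, and the other 16 sites lie inside the band.

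Over both loci, 2 of 24 WT sites (8.33%) were found in WT only, against 27.6% of all WT sites, and 1 of 23 dKO sites (4.35%) in dKO only, against 14.4% of all dKO sites. The lower WT share did not hold at every threshold. With a minimum fold enrichment of 8 it was 4 of 12 WT sites (33.3%), against 25.9% of all, and with q under 1e-10 it was 6 of 23 (26.1%), against 29.8%. Of the 22 shared sites, 5 (22.7%) ranked at least 20 percentile points lower in dKO, against 13.6% of all shared sites, and 1 (4.55%) at least 20 points higher, against 7.03%. A centred log2 ratio of −0.5 or lower was seen at 6 of them (27.3%), against 7.8% of all shared sites, and one of 0.5 or higher at 1 (4.55%), against 10.3%. Of the 6 sites, 3 were among the 9 shared sites of the *Cd4* window and 3 among the 13 of the Cd8 window. Those of the *Cd4* window include site 2, at the promoters of *Usp5* and *Cdca3*. In the *Cd4* window 8 of 9 shared sites had ratios below 0, with a median of −0.21, and in the Cd8 window 7 of 13 did, with a median of −0.04, beside 49.9% of all shared sites, a share that the centring sets. Without centring, the counts were 8 and 9 (64.8% of all), and centred on promoter sites they were 7 and 5 (42.0% of all). These shares describe a small number of neighbouring sites, several within 1 kb of each other, and were not tested.

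**Figure D3:**
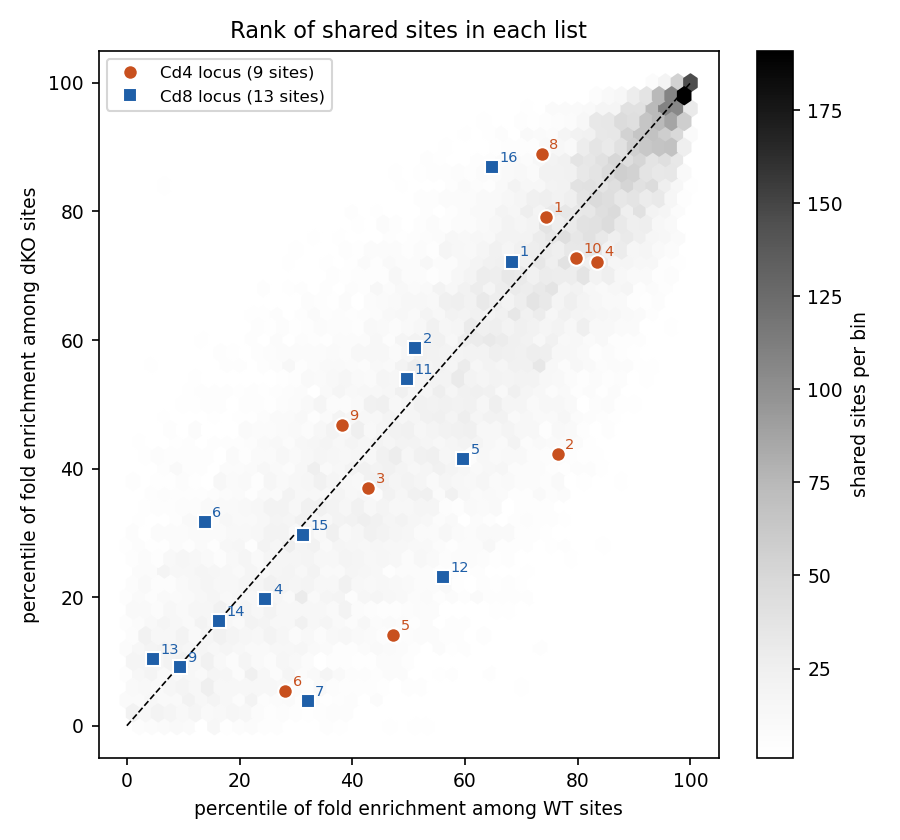
Percentile of fold enrichment in the WT list (x axis) and the dKO list (y axis) for the 9 shared sites of the *Cd4* window (circles) and the 13 of the Cd8 window (squares), over the density of all 20626 shared sites in grey, with a dashed line where the percentiles are equal. Cd4 sites 2, 5 and 6 and Cd8 sites 7 and 12 lie at least 20 points below the line, and Cd8 site 16 lies above it at 64.8 and 86.9.

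The motifs near the summits were counted within 100 bp on either side, on both strands, and no match to one motif overlapped a match to another. The core Tcf/Lef sequence ATCAAAG was found at 2 of 24 WT sites of the loci, Cd4 site 5 and Cd8 site 4, and at 3.81% of all WT sites. Their centred log2 ratios were −1.09 and 0.00, with counting intervals that overlapped. Around the dKO summits it was found at 3 of 23 sites, against 2.42% of all dKO sites, the third being the *Cd8b1* promoter, where the shifted window took it in. The core Runx sequence TGTGGT was found at 6 WT sites (21.8% of all WT sites), the Ets core GGAAGT at 4 (26.0%) and the E-box CAGNTG, bound by E proteins, at 12 (41.8%).

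Across all shared sites, a ratio of −0.5 or lower was seen at 18.4% of the 538 with ATCAAAG around the WT summit and at 7.52% of those without it. For TGTGGT, the same shares were 8.02% with it and 7.74% without it, while a ratio of 0.5 or higher was seen at 19.4% with it and 7.88% without it. The CTCF core was found at 4 WT sites of the loci, Cd4 sites 1 and 8 and Cd8 sites 1 and 16, and at 11.7% of all WT sites. At these the ratios ran from −0.08 to 0.64. None of the 6 sites at −0.5 or lower held it, which says little for a sequence found at so few sites. Across all shared sites, a ratio of −0.5 or lower was seen at 4.71% with the CTCF core and 8.18% without it. A relation at the loci was not tested. A match describes the sequence and does not show that a factor was bound. The paper reports Tcf1 binding at the *Cd4* locus by ChIP-seq, and its position relative to the sites above was not examined here.

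The local background, which MACS2 takes over 10000 bp around a summit, was solved from the pileup and the fold enrichment. Relative to the genome background of its pool it was lower in dKO than in WT at 21 of the 22 shared sites of the loci, and at 67.2% of all shared sites. At Cd4 sites 5 and 6 it was 1.64 and 1.66 times the genome background in WT and 1 times in dKO, the lowest value it can take. Only 0.155% and 0.136% of all shared sites had a lower ratio. Neighbouring sites such as this pair share most of the 10000 bp, so their values, and the 22 above, are not independent. The excess over the genome background in WT, 2.82 fragments at site 5, was below the 3.65 that the fragments of the peaks themselves could add at most. A lower density beyond these peaks was thus not shown.

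At Cd8 site 7 the background was also raised, at 2.28 times that of the genome in WT and 1.98 times in dKO, and there the peaks could account for at most 1.79 of an excess of 5.6 fragments in WT. Around the middle of the interval between the genes, at site 11, it was 2.22 and 1.66 times. At site 7, fragments were therefore dense in WT beyond what the called peak could hold. In dKO the excess there was 3.16, of which peaks could add at most 0.722. This was not particular to site 7. In both lists the excess was also above that limit at Cd8 sites 5, 6, 9 and 11 (2.93 against 0.496 in WT at site 6, 3.91 against 3.49 at site 5). At Cd8 site 13 it was not in WT (4.26 against 4.38) but was in dKO (2.27 against 1.98).

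The genes that act on coreceptor expression were looked at in the same way. The 15 regulators of *Cd4* and *Cd8* transcription had 134 WT and 106 dKO sites in their windows, of which 40 (29.9%) were found in WT only and 12 (11.3%) in dKO only, beside 27.6% and 14.4% of all sites. At their 94 shared sites the median centred log2 ratio was 0.00, with 8 (8.51%) at −0.5 or lower and 10 (10.6%) at 0.5 or higher. The shares over all shared sites were 7.8% and 10.3%. *Runx3*, which encodes the Runx protein of the CD8 lineage, had 13 WT and 9 dKO sites and a promoter ratio of −0.09, and *Cbfb*, which encodes the partner of all Runx proteins, had 9 and 8 and a promoter ratio of −0.29. *Runx1* had 13 and 12 sites, and its promoter sites had ratios of 0.49 and 0.63. *Zbtb7b* had 8 and 5 sites, and *Patz1*, which encodes the zinc finger protein MAZR, had 8 and 6 with a promoter ratio of −0.64. *Myb* had 6 WT and 3 dKO sites, of which 2 were shared.

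The 9 genes whose products signal with the coreceptors had 79 WT and 63 dKO sites. Of these, 26 (32.9%) were found in WT only and 10 (15.9%) in dKO only, beside 27.6% and 14.4% of all sites. At their 53 shared sites, the median centred log2 ratio was 0.01, with 6 (11.3%) at −0.5 or lower and 8 (15.1%) at 0.5 or higher. Beside these, the shares over all shared sites were 7.8% and 10.3%. *Lck*, the kinase that the coreceptors carry, had 14 WT and 10 dKO sites, and its promoter sites had ratios of −0.33 and 0.18. *Cd247*, which encodes the zeta chain, was the only one with more dKO than WT sites, 15 and 13, and its promoter site had a ratio of 0.51. The window of *Lag3* overlaps that of *Cd4*, and its 2 sites at −0.5 or lower are Cd4 sites 5 and 6. These 2 are thus among the 6 and are not separate from the *Cd4* result.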

How the data were processed

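Per the labels and the methods, DNase I (2.4 units, 5 min) was applied to 300000 cells in every replicate, and the authors sequenced products of 160 to 300 bp, aligned reads to mm9 with Bowtie2 2.2.5, kept reads of mapping quality over 10, pooled the replicates and called peaks with MACS2 2.1.1 without a control. The file headers give fragment sizes of 98 bp (WT) and 97 bp (dKO) and a regional background range of 10000 bp. The headers list 2 input files per pool, not 1 per replicate, whose names differ only by a word for sorting. They hold 167847468 and 124485926 fragments in total, of which MACS2 kept a share of 0.5 at 1 copy per fragment. Whether the same fragments were entered again is not given in the sources used here, and the kept fragments were taken as the depth. Pileup, as deposited, is the unscaled signal, in fragments, the deposited fold enrichment is a ratio to the local background, and the deposited p and q values are on the −log10 scale.

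An overlap of 1 bp or more made a site shared. Gene models were those of gencode for mm9, and sequences were read from that genome. The pairing of overlapping sites was tested on simulated data, with a log2 ratio of simulated counts computed beside it, and the other steps were not tested in this way. The local background was computed as (pileup + 1) / fold enrichment − 1, because MACS2 adds 1 to both terms. Named in full are the promoter and body sites of the 3 genes, the strongest site between *Cd8b1* and *Cd8a* and in each flank, sites found in 1 list, and shared sites that differed by 20 percentile points or by 0.5 on the log2 scale. Of the cell type markers looked up, 1 is not reported here. The members, the gene lists and the motifs were chosen with earlier results of these data known. Alternatives were another fold, q or list length, other windows, ranks, centring and motif windows, and, chosen after the data had been seen, the shorter core TCAAAG, the CTCF core and the local background. Python 3.11.15, numpy 2.4.6, pandas 2.3.3, scipy 1.17.1 and matplotlib 3.10.9 were used.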

Additional observations from a re-analysis of the deposited data

How the results depend on the processing

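No paired analysis was possible because the replicates of each genotype were pooled before peak calling and the lists carry no replicate values, and for the same reason no replicate could be left out. Of 234 alternative values, 199 stayed within 1.5 times the count, within 10 percentile points or within 0.2 on the log2 scale, and 35 moved further. No percentile difference of 20 points or more, and no log2 ratio of 0.5 or more either way, changed sign. Smaller values did, such as the percentile difference at Cd4 site 9 (8.62 by fold enrichment, −8.73 by pileup). The median ratio of the Cd8 window went from −0.04 to 0.03 when centred on promoter sites. With a minimum fold enrichment of 8, the *Cd4* window held 6 WT and 5 dKO sites, 2 and 1 of them in 1 list only, and the Cd8 window held 6 and 4, with 2 and 0. Over both windows 33.3% of WT sites were then WT-only, against 25.9% of all WT sites. With q under 1e-10, 3 sites of each window were found in WT only, 26.1% against 29.8% of all. With all deposited peaks, the Cd8 window had 2 WT-only peaks, and over both windows the share was 12% against 30.1%. With the 20000 peaks of each list that had the highest −log10 p, the *Cd4* window had 2 WT-only sites, and the Cd8 window had 8 WT and 9 dKO sites, 2 of them dKO-only, and over both windows 17.6% of WT sites were WT-only, against 19.7% of all. A flank of 20 kb left 5 WT and 4 dKO sites at *Cd4*, and one of 100 kb gave 3 WT-only and 1 dKO-only site there. Within 50 bp of the summit, the Tcf/Lef core was found at 1 WT and 0 dKO sites, the Runx core at 3 dKO sites and the E-box at 6 dKO sites, and the shorter TCAAAG (added after the data had been seen) was found at 4 WT sites. The percentile difference at Cd4 site 5 was −33.2 by fold enrichment, −45 by −log10 p and −51.9 by pileup. At Cd4 site 6 it was −22.7 by fold enrichment and −39.8 by pileup, at Cd8 site 5 it was −18.2, −29.1 by −log10 p and −32.6 by pileup, and at Cd4 site 2 it was −34.3 and −16.2 by pileup. Without centring, 4 *Cd4* sites rather than 3 had ratios of −0.5 or lower, and the Cd8 count stayed at 3. With percentiles among all deposited peaks, no shared site of the loci was 20 points higher in dKO, Cd8 site 16 standing at 19.7. Why the values moved was not tested.

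The lists differ in depth and in the number of animals, and neither can be told apart from genotype here. Counting intervals leave out the spread between animals.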
